A study of Mus musculus with 2 samples.

Results

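The genes described here are those of cholesterol synthesis, of the formation of oxysterols, of sterol ester turnover and of sterol transport inside the cell. They are a list of 32 gene symbols defined by their place in the pathway. The list was drawn up with earlier results of these data known. Of the 32, 29 had probe sets carrying their symbol alone, out of 18193 genes on the array, and the array signals of Acat2, Soat1 and Soat2 were not analysed here. RAW264.7 is a mouse macrophage-like cell line, and the cells used here stably expressed murine LXRα after chemical transfection. LXRα (gene Nr1h3) is a nuclear receptor activated by oxysterols. One culture received GW3965, a synthetic LXR agonist, at 1 µM together with LG268, an RXR agonist, at 100 nM. The other received the solvent DMSO, and both were treated for 24 h. Each condition was measured on 1 Affymetrix mouse 430 2.0 array, so no test was possible and every ratio below compares 2 arrays. The ligands were given together and the cells all carried the introduced receptor, so neither the share of each ligand nor that of the endogenous receptor can be told apart. The promoter that drove the introduced receptor, and whether the line was a single clone, are not given in the sources used here.

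Signals were MAS5 values in arbitrary units, with a trimmed mean of 2500 on both arrays. A floor of 276.4, the median of all gene probe sets, separated measured from weak signals, and 11077 genes lay above it on at least 1 array. Each gene is given by its brightest probe set unless stated otherwise. The single probe set of Nr1h3 had a signal of 5577 on the ligand array and 3150 on the DMSO array. All 9 macrophage markers (among them Csf1r, Cd14 and Spi1) were measured on both arrays, with log2 ratios of -0.21 to 0.61. By the brightest probe set, none of the T and B cell, fibroblast and epithelial markers on the array was above the floor, although another probe set of the fibroblast marker Dcn was on 1 array. The hepatocyte marker Apoa1 was above it on the ligand array only (380.1 with the ligands and 25.9 with DMSO), and the endothelial marker Kdr on the DMSO array only (39.0 with the ligands and 300.0 with DMSO). The part of such cells in the results was not tested. Error was estimated from the disagreement between probe sets of 1 gene, since nothing else was repeated. It corresponded to an SD of 0.28 in the log2 ratio of a probe set over 4866 genes, and of 0.19 over 2309 genes with signals above 2186. It covers measurement within these arrays and not the spread between cultures. In such bulk RNA, fewer cells of a kind and less RNA per cell cannot be told apart.

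Cholesterol is built from acetyl-CoA through mevalonate, isoprenoid pyrophosphates, squalene and lanosterol. The enzymes of this route are classical targets of SREBP-2, a membrane-bound transcription factor that is released when sterols in the endoplasmic reticulum are low. LXR is activated when oxysterols accumulate, and it is known for driving cholesterol export and, through SREBP-1c, fatty acid synthesis. In macrophages, cholesterol taken up from lipoproteins is freed in the lysosome, passed on by Npc2 and Npc1, and stored as esters in lipid droplets.

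The sterol genes did not move together. Taking 1.5-fold as the limit, 3 of the 28 measured genes were higher with the ligands (Tm7sf2, Pmvk and Mvd), Fdft1 alone was lower and 24 lay within it. Over all measured genes the same limit was passed upward by 6.36% and downward by 4.77%. All but 1 of the 28 were bright genes, and among the 6967 genes whose brighter signal exceeded 2186 the shares were 4.15% and 2.53%. The counts of 3 and 1 were the same among the 27 bright sterol genes. The upward count was above what these shares would give, and the downward one was close to it. Counts this small were not tested against the shares, so they describe single genes and not the list. At 2-fold only Tm7sf2 was higher and no sterol gene was lower, against 1.67% and 0.776% of measured genes. The median log2 ratio of the 28 genes was -0.06, beside -0.03 over all measured genes, with 13 ratios above and 15 below 0. The 14 genes with more than 1 measured probe set had all of them in 1 direction in 10 cases, the exceptions being Mvk, Ggps1, Cyp51 and Sc5d.

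**Figure D1:**
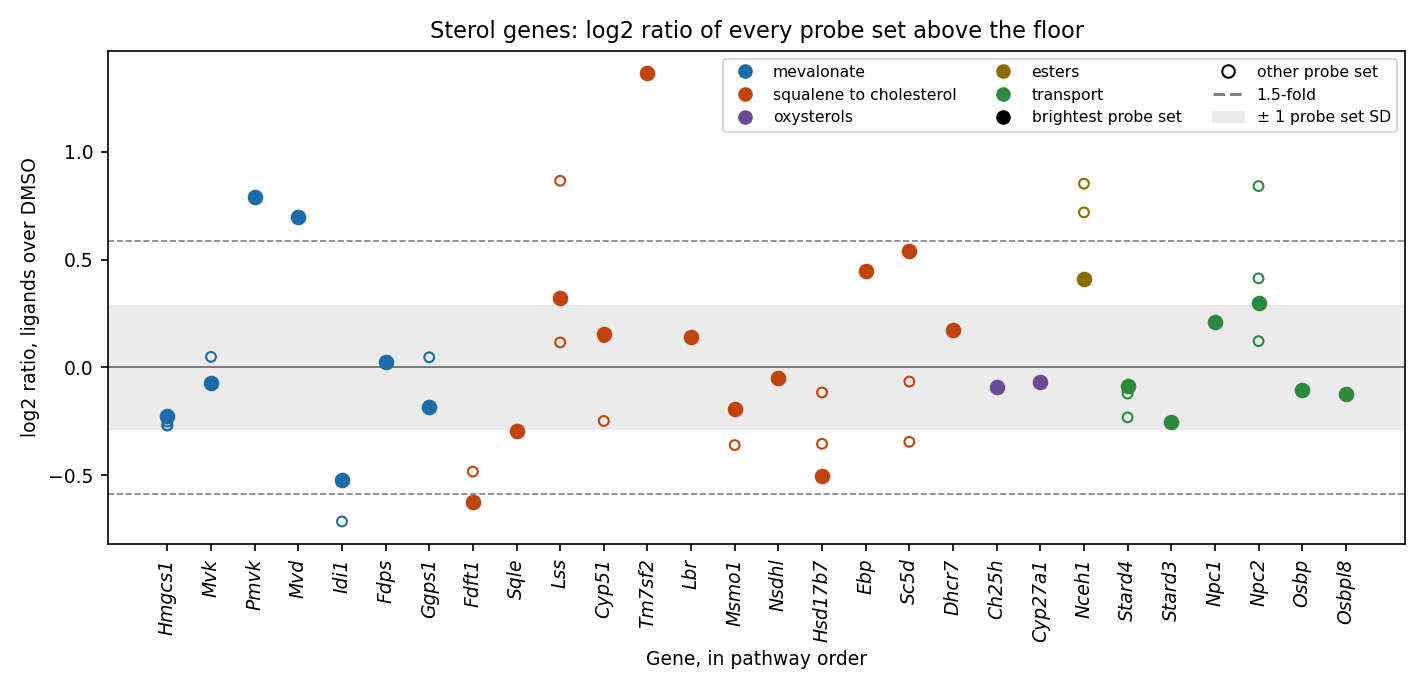
Log2 ratio of ligands over DMSO (vertical axis) for every probe set above the floor on at least 1 array, with the 28 measured genes in pathway order. Filled points are the brightest probe set of a gene, open points its other probe sets, the grey band is the probe set SD of 0.28 either side of 0 and dashed lines mark 1.5-fold. Tm7sf2 stands highest at 1.36, Pmvk and Mvd lie above the upper dashed line, and Fdft1 lies below the lower one.

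The mevalonate steps split between neighbouring enzymes. Hmgcs1 is the cytosolic synthase that makes HMG-CoA. Its brightest probe set had a signal of 41362 on the ligand array and 48264 on the DMSO array. All 5 of its probe sets were lower with the ligands, within a narrow range of log2 ratios from -0.27 to -0.22. Mvk, which phosphorylates mevalonate, had 2976 with the ligands and 3125 with DMSO. Its probe sets gave log2 ratios of -0.07 and 0.05, on both sides of 0. The next enzymes were higher. Pmvk, phosphomevalonate kinase, had a signal of 13072 on the ligand array and 7556 on the DMSO array. That is 1.73-fold higher, from a single probe set. Mvd, which decarboxylates mevalonate diphosphate to isopentenyl pyrophosphate, had 14819 with the ligands and 9138 with DMSO. It was 1.62-fold higher, and a second probe set, with 8914 on the ligand array and 5475 on the DMSO array, was 1.63-fold higher. These ratios placed Pmvk above 96.8% and Mvd above 95.6% of the measured genes.

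The enzyme that follows Mvd went the other way. Idi1 interconverts the isoprenoid building blocks isopentenyl and dimethylallyl pyrophosphate. Its brightest probe set read 12748 with the ligands and 18312 with DMSO, and its second 3542 with the ligands and 5808 with DMSO. The log2 ratios were -0.52 and -0.71, so Idi1 was 1.44-fold lower by the brighter and 1.64-fold lower by the dimmer probe set. Fdps, farnesyl pyrophosphate synthase, was nearly level, with a log2 ratio of 0.03. Ggps1, which makes geranylgeranyl pyrophosphate for protein prenylation, had log2 ratios of -0.19 to 0.05 over 4 probe sets. Over the 7 measured mevalonate enzymes the median log2 ratio was -0.07, and Pmvk and Mvd were the 2 beyond 1.5-fold.

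The 150 bases before the annotated start of 4 mevalonate genes are shown because neighbouring steps differed in direction. Pmvk (chr3:89454391-89454540, plus strand) and Mvd (chr8:122443423-122443572, minus strand) were higher, while Hmgcs1 (chr13:119690201-119690350, plus strand) and Idi1 (chr13:8885456-8885605, plus strand) were lower. Sequences are RefSeq's on GRCm38.p6, written along the gene's strand. Capitals mark the CCAAT box, the core bound by NF-Y, on either strand (CCAAT or ATTGG), and a sterol regulatory element searched as TCACNCCAC on both strands, a form of the SREBP binding site.
Pmvk: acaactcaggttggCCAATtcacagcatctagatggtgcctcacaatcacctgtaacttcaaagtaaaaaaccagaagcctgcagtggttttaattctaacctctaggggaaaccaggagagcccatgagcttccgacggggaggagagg
Mvd: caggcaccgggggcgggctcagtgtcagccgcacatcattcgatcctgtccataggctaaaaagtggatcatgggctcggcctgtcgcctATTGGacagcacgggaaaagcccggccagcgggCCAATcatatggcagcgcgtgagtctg
Hmgcs1: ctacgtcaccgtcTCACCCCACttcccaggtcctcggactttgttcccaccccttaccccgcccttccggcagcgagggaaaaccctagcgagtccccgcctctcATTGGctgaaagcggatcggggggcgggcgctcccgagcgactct
Idi1: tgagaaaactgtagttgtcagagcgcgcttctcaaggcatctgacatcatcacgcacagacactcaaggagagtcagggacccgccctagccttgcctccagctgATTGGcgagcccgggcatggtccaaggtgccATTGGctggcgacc
All 4 windows held at least 1 CCAAT box. Mvd and Idi1 had a pair each, beginning 60 and 27 bases before the start in Mvd and 45 and 14 bases before it in Idi1. Hmgcs1 also held the sterol regulatory element, 137 to 129 bases before the start. CCAAT letters were thus found in this window both in genes that were higher and in genes that were lower. By their brightest probe sets Hmgcs1 and Idi1 lay inside the 1.5-fold limit. The part of these letters in the ratios was not tested.

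From squalene onward the ratios again differed by step. Fdft1, squalene synthase, commits farnesyl pyrophosphate to sterols, and it had the lowest ratio of all the sterol genes. Its signal was 15893 on the ligand array and 24462 on the DMSO array. It was 1.54-fold lower by this probe set, and its second measured probe set had a log2 ratio of -0.48. With averaged probe sets, Fdft1 stood at -0.55, inside the 1.5-fold limit, and Idi1 at -0.62, outside it. Sqle, the squalene epoxidase, had 27380.5 with the ligands and 33627 with DMSO, a log2 ratio of -0.30. The enzyme that makes squalene and the enzyme that oxidises it were thus both on the lower side. Lss, which closes the rings to lanosterol, was on the higher side. It had 21095 with the ligands and 16878 with DMSO, and its 3 probe sets ranged from 0.12 to 0.87 on the log2 scale. The brightest of them is of a type (_s_at) that can detect several transcripts, and without it Lss stood at 0.87.

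The steps that follow concern the C14 methyl group of lanosterol. Cyp51, the lanosterol demethylase, had 13222 with the ligands and 11866 with DMSO. Its log2 ratio was 0.16, and its 3 probe sets ranged from -0.25 to 0.16. The double bond that Cyp51 leaves is reduced by either of a pair of related C14 sterol reductases, Tm7sf2 and Lbr. Tm7sf2 had a signal of 5734 on the ligand array and 2228 on the DMSO array. This was 2.57-fold higher, a log2 ratio of 1.36 that exceeded those of 99.3% of the measured genes. It ranged from 1.35 to 1.39 over the alternatives tried. Lbr, the lamin B receptor of the inner nuclear membrane, had 45840.4 with the ligands and 41539 with DMSO. Its log2 ratio was 0.14, within the probe set SD. Tm7sf2 and Lbr had 1 probe set each, so neither ratio could be checked within its gene.

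The C4 demethylation enzymes lay at or below 0. Msmo1, the C4 methyl sterol oxidase, had 41965 with the ligands and 48016 with DMSO, and its probe sets gave -0.19 and -0.36. Nsdhl, the decarboxylating dehydrogenase, had a log2 ratio of -0.05. Hsd17b7, the 3-ketosteroid reductase that completes each round, read 5532 with the ligands and 7838 with DMSO. Its 3 measured probe sets were all lower, with log2 ratios from -0.50 to -0.12. The last enzymes of the pathway were on the other side of 0. Ebp, the sterol isomerase, had 17248 with the ligands and 12649 with DMSO, a 1.36-fold higher value. Sc5d, the C5 desaturase, had 12619 with the ligands and 8692 with DMSO, 1.45-fold higher. Its dimmer probe sets gave -0.07 and -0.34, and the mean over the 3 was 0.04. Dhcr7, which makes cholesterol from 7-dehydrocholesterol, had a log2 ratio of 0.17. Over the 12 enzymes from Fdft1 to Dhcr7 the median log2 ratio was 0.15, with 7 above and 5 below 0. It was 0.03 when probe sets were averaged.

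**Figure D2:**
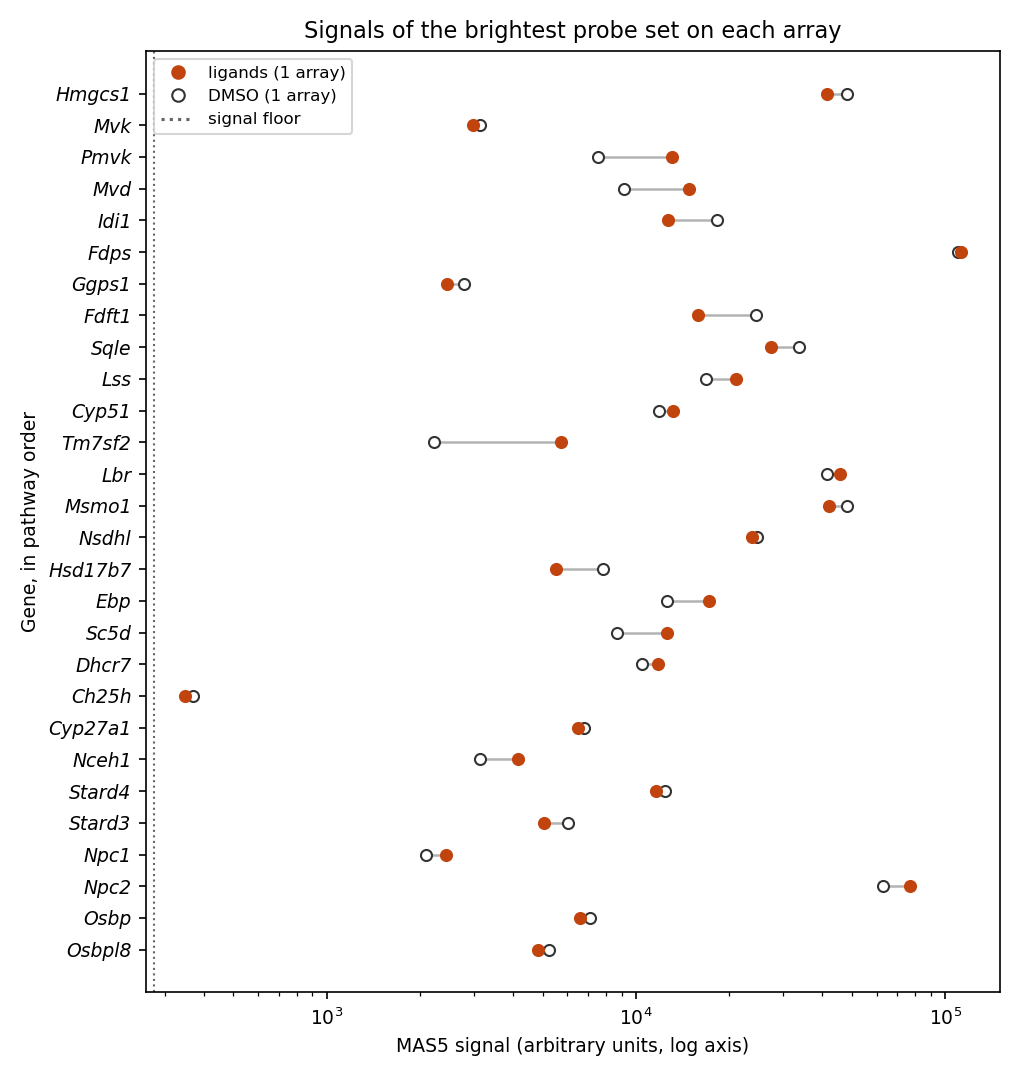
MAS5 signal (horizontal log axis, arbitrary units) of the brightest probe set of each of the 28 measured genes, in pathway order from top to bottom. Filled points are the ligand array and open points the DMSO array (1 array each), and the dotted line is the floor of 276.4. The longest connecting line belongs to Tm7sf2, and Ch25h is the gene nearest the floor.

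The promoters of the C14 reductase gene with the largest ratio and of Hsd17b7, one of the lowest by its brightest probe set, are given for comparison. Hsd17b7 lay inside the 1.5-fold limit at -0.50. Its brightest probe set is of the _x_at type, and without it Hsd17b7 stood at -0.35. Tm7sf2 (chr19:6067851-6068000, minus strand) and Hsd17b7 (chr1:169969206-169969355, minus strand) are shown as above, over 150 bases before the start on GRCm38.p6.
Tm7sf2: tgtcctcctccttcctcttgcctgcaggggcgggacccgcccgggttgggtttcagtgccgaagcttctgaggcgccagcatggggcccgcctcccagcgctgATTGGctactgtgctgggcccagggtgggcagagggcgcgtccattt
Hsd17b7: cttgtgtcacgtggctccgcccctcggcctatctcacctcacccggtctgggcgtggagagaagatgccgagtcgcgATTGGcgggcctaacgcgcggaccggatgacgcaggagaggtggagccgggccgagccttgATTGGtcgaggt
Tm7sf2 held 1 CCAAT box in this window, beginning 47 bases before the start. Hsd17b7 had a pair within it and another beginning 165 bases before the start.

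The CCAAT box was the feature most of the promoters shared. RefSeq promoters of 25 of the 32 genes (28 promoters) were searched over the 250 bases before the start. Fdps, Fdft1, Sqle, Cyp7b1 and Soat2 had no promoter at hand. Npc1 and Stard4 were left out of the search by their chromosome, which was kept in the set of all promoters. The shares below therefore do not cover these genes. CCAAT was present in 22 of the 28 promoters (78.6%). It was present in 33.8% of all 32851 promoters of the same length, and in 35.2% of those of measured genes. Acat2, Ch25h and Osbpl8 had none. The GC box, GGGCGG, was in 75% of the promoters, against 57.2% of those of measured genes and 32.7% of all. The E box, CACGTG, was in 17.9% (Hsd17b7, Sc5d, Dhcr7, Nceh1 and Osbpl8), against 8.49% of those of measured genes and 6.02% of all. TCACNCCAC was in 2 (Hmgcs1 and Stard3), and 1.05% of the promoters of measured genes and of all genes held it. A direct repeat of the LXR type, searched as GGTCA followed by GGTCA with a gap of 5 bases, was in none of the 28. It was in 0.0347% of the promoters of measured genes and in 0.0639% of all. Letters this rare would hardly be met in 28 promoters, so no conclusion is drawn from their absence. Both strands were searched for every motif. These letters describe the windows only, and binding was not measured.

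Genes that make oxysterols, the natural LXR ligands, were weak or level. Ch25h, cholesterol 25-hydroxylase, had 348.2 with the ligands and 371.2 with DMSO, little above the floor. Its log2 ratio was -0.09. Cyp27a1, the mitochondrial sterol 27-hydroxylase, had 6484 with the ligands and 6795 with DMSO, a log2 ratio of -0.07. Cyp7b1, which 7α-hydroxylates oxysterols, was below the floor on both arrays in all 3 of its probe sets, so no fold is given.

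Nceh1 was the only ester gene measured. It encodes a hydrolase of neutral cholesterol esters that is known in macrophages. Its signals were 4165 with the ligands and 3136 with DMSO for the brightest probe set. The next read 3957 with the ligands and 2404 with DMSO, and the last 1845 with the ligands and 1022 with DMSO. All 3 were higher with the ligands, by 1.33-fold, 1.65-fold and 1.80-fold. The brightest lay inside and the other probe sets outside the 1.5-fold limit. Averaged over the 3, the log2 ratio was 0.66, and Nceh1 then counted as higher.

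Sterol transport genes differed little, and all 6 lay within 1.5-fold. Their median log2 ratio was -0.10. The lysosomal pair were on the higher side. Npc2, the soluble carrier that hands cholesterol to Npc1, had 77174 with the ligands and 62804 with DMSO. The 3 probe sets that exceeded the floor on both arrays were all higher, with log2 ratios from 0.30 to 0.84. The other probe set was above the floor on the ligand array only, at least 1.09-fold higher. Npc1, the membrane transporter of the lysosome, had 2427 with the ligands and 2098 with DMSO. Its log2 ratio of 0.21, from 1 probe set, was smaller than the probe set SD of 0.28. The cytosolic and membrane-contact carriers were on the lower side. Stard4, a soluble sterol carrier and known SREBP-2 target, gave log2 ratios of -0.23 to -0.09 over 3 probe sets. Stard3, which tethers late endosomes to the endoplasmic reticulum, had 5051 with the ligands and 6012 with DMSO, a log2 ratio of -0.25. Osbp, which exchanges sterol for a phosphoinositide at the Golgi, had a log2 ratio of -0.10, and Osbpl8, a lipid transfer protein of the endoplasmic reticulum, one of -0.12. Each of these 3 ratios was smaller than the probe set SD of 0.28. The size of the Stard3 ratio exceeded the SD of 0.19 found for genes with signals above 2186.

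Further genes of sterol and prenyl metabolism were read from a second list of 46 symbols. Of 34 measured, 3 passed 1.5-fold upward and 3 downward, counts near the background of 6.36% and 4.77% of all measured genes. Their median log2 ratio was 0.02. Insig1, which retains the SREBP precursor in the endoplasmic reticulum, was 2.24-fold higher (7618 with the ligands and 3405 with DMSO). Srebf2, which encodes SREBP-2, had a log2 ratio of 0.18 and its escort Scap one of -0.13. Gramd1b encodes a protein that moves cholesterol from the plasma membrane to the endoplasmic reticulum. It read 6140.0 with the ligands and 2809 with DMSO, 2.19-fold higher, and its second probe set had a log2 ratio of 1.81. Its relative Gramd1a had a log2 ratio of 0.43. Pcyt1a, the regulatory enzyme of phosphatidylcholine synthesis, was 1.71-fold higher by its brightest probe set, but its 4 probe sets ranged from 0.06 to 0.78.

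The lower genes of the second list were Pggt1b, Osbpl1a and Lcat. Pggt1b, a subunit of the enzyme that attaches geranylgeranyl groups to proteins, was 1.61-fold lower (2449 with the ligands and 3951 with DMSO). Its 4 probe sets ranged from -0.69 to 0.24, and their mean was -0.13. Osbpl1a had log2 ratios of -0.61 and 0.65 in its probe sets, and their mean was 0.02. Lcat, the plasma cholesterol acyltransferase, was below the floor on the ligand array and at 430.5 on the DMSO array, at least 1.56-fold lower. Of the 8 measured relatives of Osbp, 2 had positive and 6 negative ratios, beside 5963 negative ratios among all 11077 measured genes. Lipa, the lysosomal acid lipase that frees cholesterol from lipoprotein esters, had 34110.4 with the ligands and 24366 with DMSO, and its 3 probe sets ranged from 0.25 to 0.60.

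**Figure D3:**
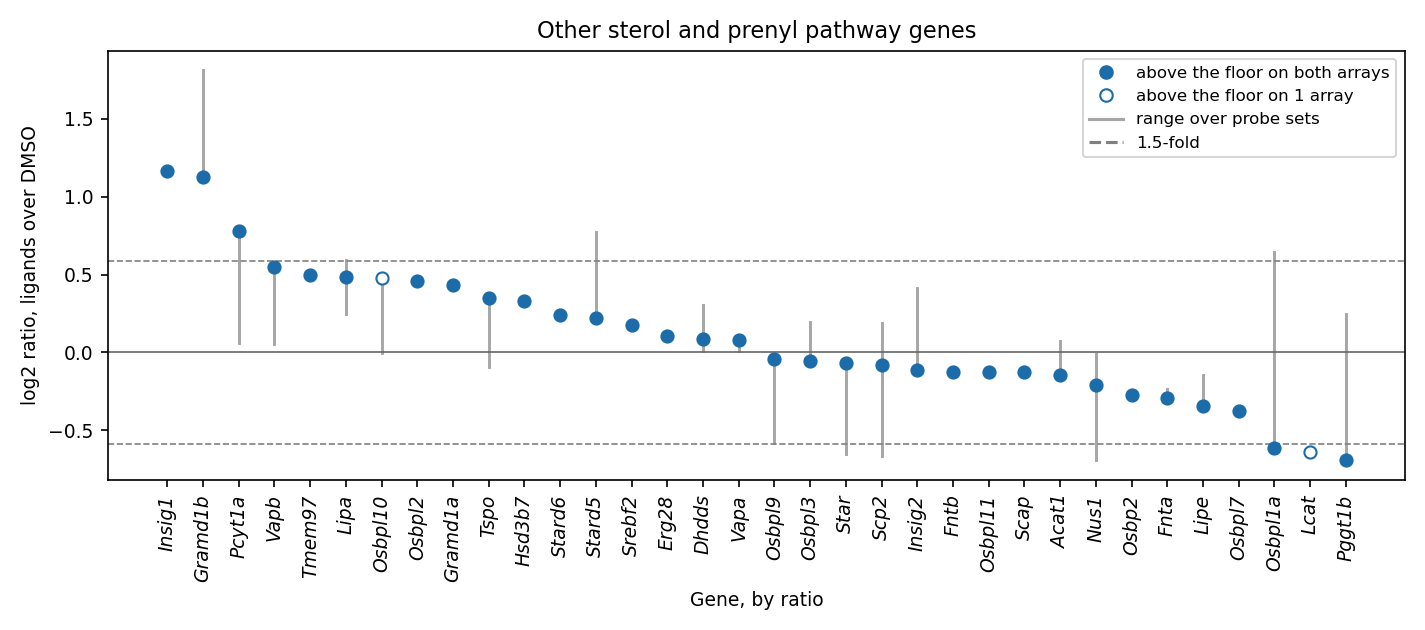
Log2 ratio of ligands over DMSO for the 34 measured genes of the second list, ordered by ratio. Points are the brightest probe set (open where only 1 array was above the floor), vertical lines span the measured probe sets of the gene and dashed lines mark 1.5-fold. Insig1 and Gramd1b lie above 1, and the line of Osbpl1a spans both sides of 0.

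Fatty acid synthesis genes, the other SREBP-regulated route from acetyl-CoA, were set beside the sterol genes. Srebf1, which encodes SREBP-1, was 3.19-fold higher (61505 with the ligands and 19262.5 with DMSO). The fatty acid list was added after values were seen. Of 8 measured fatty acid genes, 5 passed 1.5-fold upward and none downward, beside 6.36% and 4.77% of all measured genes. The median log2 ratio of the 8 was 1.04. The 3 genes within the limit were Scd2 at 0.51, Slc25a1 at 0.33 and Elovl6 at -0.03. Acss2, which makes acetyl-CoA from acetate, had a log2 ratio of 1.65, Fasn 1.54 and Acaca 1.36. The value for Acaca was thus close to that of Tm7sf2. The next sterol genes after Tm7sf2 were Pmvk at 0.79 and Mvd at 0.70. The LXR target Abca1, the cholesterol exporter, had a log2 ratio of 4.76. With 1 array per condition the difference between the sterol and fatty acid lists was not tested.

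**Figure D4:**
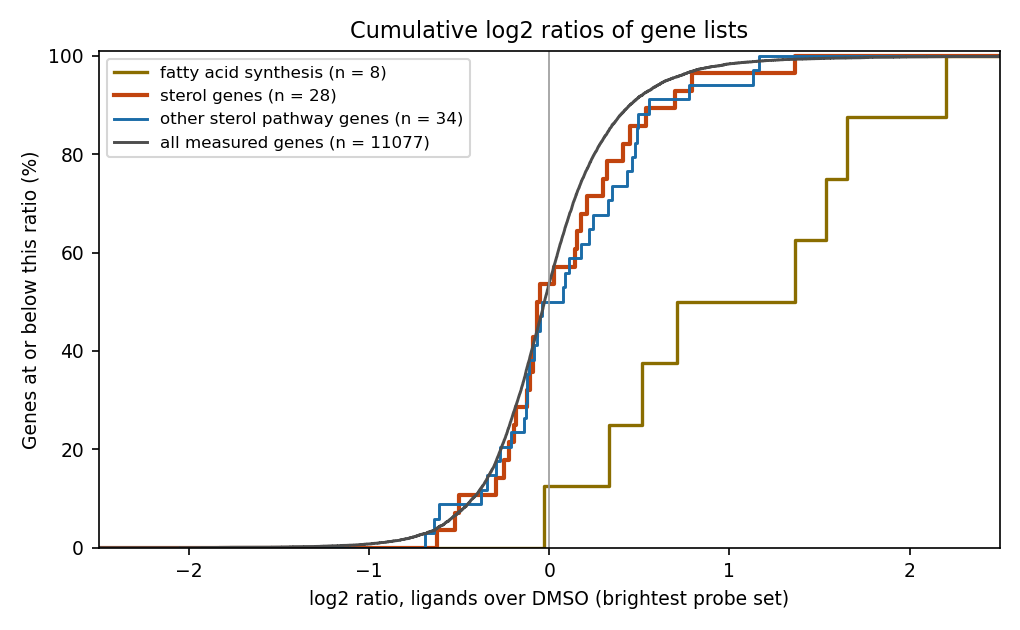
Share of genes (vertical axis, percent) at or below a given log2 ratio of ligands over DMSO (horizontal axis) for the fatty acid genes (n = 8), the sterol genes (n = 28), the second list (n = 34) and all measured genes (n = 11077). The sterol curve crosses the middle of the vertical axis near 0, beside that of all genes, and the fatty acid curve lies to the right of both.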

How the data were processed

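Total RNA of RAW264.7 cells expressing LXRα was the starting material for 2 Affymetrix mouse 430 2.0 arrays, 1 for the ligands and 1 for DMSO. Biotin was the label. The deposited values are linear intensities per probe set, which the submitters' processing notes say were computed by MAS5 (version not given in the sources used here). This algorithm combines perfect-match and mismatch probes and scales each array, so ratios are relative to the bulk of the array. The deposited intensities were used as they stand, since the trimmed mean (2% from each end) was 2500 on both arrays.

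Of 45101 probe sets, 34945 carried 1 gene symbol, 932 several and 9160 none, per the platform annotation, and 64 were controls. Symbols of 34741 were updated by gene identifier to the RefSeq annotation of GRCm38.p6. Only probe sets with 1 symbol were used. Detection calls were not used here. Signals under the floor of 276.4 (the 50th percentile) were raised to it, and log2 ratios were taken as ligands over DMSO. A gene was measured if its brightest probe set lay above the floor on at least 1 array, and was counted as higher or lower at 1.5-fold. No p-value was computed because a group held 1 array, and the number of arrays limits the precision.

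All 32 genes of the main list were to be named whatever their values, with at most 8 genes of the second list at least 1.5-fold apart, and Abca1 and Srebf1. Other genes, and the fatty acid list, were added after values were seen. The members and all lists were chosen with earlier results of these data known. The ratio procedure was run on simulated data, a copy of the DMSO array with set ratios for some genes and no noise. That run checked the arithmetic only and not the error of the arrays. The alternatives tried were floors at 2 other percentiles (25 and 75), log2(signal + 32) without a floor, quantile normalization, centring, averaging probe sets, leaving out _s_at and _x_at probe sets, requiring both arrays above the floor, and 2-fold and 3-fold limits. Restricting to genes whose brighter signal exceeded 2186, the 75th percentile, was added after seeing the data. Python 3.11.15, numpy 2.4.6 and pandas 2.3.3 were used.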

Additional observations from a re-analysis of the deposited data

How the results depend on the processing

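Tm7sf2, Pmvk and Mvd stayed at least 1.5-fold higher under every alternative to the floor, the scaling and the choice of probe sets. Tm7sf2 and Pmvk have 1 probe set each, with signals above 2186 on both arrays. Another floor percentile or choice of probe sets could therefore not alter their ratios. The count of higher sterol genes was 3 to 4 and that of lower ones 1 under the alternatives to the floor, the scaling and the choice of probe sets. A 2-fold limit left 1 sterol gene higher and 0 lower, and a 3-fold limit left 0 in both directions, since these limits are stricter. Cyp7b1 joined the higher genes with the 25th percentile floor and with no floor, because its weak signals then counted. Averaging probe sets replaced Fdft1 by Idi1 as the lower gene and added Nceh1, and leaving out _s_at and _x_at probe sets added Lss. The median log2 ratio of the sterol genes lay between -0.06 and -0.03 throughout. In the second list 6 genes were higher and 6 lower with the 25th percentile floor and also with no floor. One was lower with the 75th percentile floor (1 against 3), as with averaging (1) and among genes brighter than 2186 (1), and 0 were lower at 2-fold. At 3-fold the second list had 0 in either direction. Osbpl1a reversed to 0.018 when its probe sets were averaged. Of 317 single-gene values under the alternatives, 309 differed from the main value by less than the probe set SD of 0.28. Many of these could not differ. A floor below both signals of a gene leaves its ratio unchanged, as does the choice of probe sets for a gene with 1. The count is therefore no measure of how stable the ratios are. No paired analysis was possible because each condition has 1 array. Signal close to the floor limits Ch25h, Lcat and Cyp7b1.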
